A study of Mus musculus with 42 samples.

Results

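The genes described here are 5 members of the S100 family (S100a4, S100a6, S100a10, S100a11 and S100a13) and 3 galectins (Lgals1, Lgals3 and Lgals9). They were taken by name and make up 8 of the 54353 genes that the bulk RNA-Seq files share. S100 proteins are small calcium-binding proteins of the EF-hand type that change shape when calcium binds and then attach to partner proteins such as annexins, and some of them are also released from cells. Galectins are lectins that bind β-galactosides on glycoproteins, inside the cell, at its surface and outside it. Both families are known from activated and tissue-resident lymphocytes, and galectin-1 and galectin-9 have been studied at the interface between mother and fetus.

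The 34 bulk libraries hold tissue-resident natural killer cells (trNK) of the mouse uterus, in 17 groups of 2 libraries. Female C57BL/6 mice aged 8 to 12 weeks were used, and the labels of the time course give the genotype only as WT. In the gestation experiment, uterine cells sorted as CD45+ NK1.1+ NKp46+ CD49a+ CXCR6- came from virgin mice and from dams at gestational days 6.5 and 8.5 (gd6.5 and gd8.5), where the day of the vaginal plug is gd0.5. In the subset experiment the same gate at gd8.5 was divided by the surface proteins CD55 and 4-1BB into low (trNK-V), intermediate (trNK-D) and high (trNK-T) cells. Both culture experiments began, by the study's account, with trNK-V cells of gd6.5 dams. All cultures received IL-15, by the methods for both experiments, at a concentration that the labels and the methods state in more than 1 way. In the inhibitor culture, live NK1.1+ cells were kept for 72 h without IL-21, with IL-21 at 20 ng/mL, or with IL-21 and the STAT3 inhibitor Stattic (iSTAT3), for which the labels give 1 µM and the methods another unit. In the time course, cells were taken at 0, 6, 24 and 72 h with or without IL-21 at 20 ng/mL. No source says that the 2 libraries of a group came from separate animals, so each p-value below measures the spread between these libraries only.

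Some libraries stood apart. The 4 libraries of the 72 h time point were the most uneven, with 27.8% of the tested genes over 2-fold apart between the 2 libraries without IL-21 and 26.8% between those with it. Genes with a count numbered 10724 to 11665 without IL-21, the fewest of any group, and 12000 to 13996 with it, and the summed RPKM of 6 genes of dividing cells (Mki67, Top2a, Ube2c, Rrm2, Cdk1 and Pclaf) was 3.51 to 7.9 and 38.6 to 90.8 there against 290 to 604 in the other time course groups. The 2 virgin libraries differed over 2-fold in 10.3% of genes, against 1.42 to 1.89% at gd8.5 and gd6.5. Virgin replicate 1 was deposited with a list of 55573 genes and every other bulk library with 54446. The gene lengths of the smaller list were used for all libraries. The part of this in the spread of the virgin group was not tested. The 4 genes used as trNK markers (Itga1, Ncr1, Klrb1c and Eomes) were above 0 in every group. By the paper's account conventional NK cells also carry the products of Ncr1, Klrb1c and Eomes. Values above 0 therefore do not set the labelled type apart from them. Total counts per library ran from 11862089 to 66468883.

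The single-cell files hold 1 pooled set of uterine CD45+ NK1.1+ NKp46+ cells of virgin mice and gd8.5 dams. The files labelled virgin and gd8.5 list the same 15175 cells and share no gene (6821 and 28416 genes). They were therefore joined into 1 matrix, and nothing below compares virgin with gd8.5 in single cells, because no cell could be assigned to either. No cell barcode was used more than once.

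The S100 members lie on chromosome 3 of GRCm38, where S100a13 (ENSMUSG00000042312) spans 90514435 to 90524581, S100a4 (ENSMUSG00000001020) 90603771 to 90606045 and S100a6 (ENSMUSG00000001025) 90612882 to 90624181. Further along the same strand follow S100a11 (ENSMUSG00000027907) at 93520488 to 93526287 and S100a10 (ENSMUSG00000041959) at 93555080 to 93564643. The galectins lie apart, with Lgals1 (ENSMUSG00000068220) on chromosome 15 at 78926725 to 78930465, Lgals3 (ENSMUSG00000050335) on chromosome 14 at 47367751 to 47386160 and Lgals9 (ENSMUSG00000001123) on the minus strand of chromosome 11 at 78962974 to 78984946. Promoter sequences were read from the RefSeq table of GRCm38.p6, which held 6 of the 8 members and not S100a10 or Lgals1. The 4 promoters below belong to members with differences between groups in the bulk libraries. Each run gives, 5′ to 3′ on the strand of the gene, the 250 bases before the RefSeq start, from chr3:90612644-90612893 (plus strand) for S100a6, chr3:93520246-93520495 (plus) for S100a11, chr14:47373610-47373859 (plus) for Lgals3 and chr11:78984925-78985174 (minus) for Lgals9. Capitals mark a match to 1 of 5 motifs that were searched on both strands.
S100a6: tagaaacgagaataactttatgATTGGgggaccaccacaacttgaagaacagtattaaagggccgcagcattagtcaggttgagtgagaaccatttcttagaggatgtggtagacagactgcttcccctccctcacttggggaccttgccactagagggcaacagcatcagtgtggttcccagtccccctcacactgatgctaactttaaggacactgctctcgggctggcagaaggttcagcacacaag
S100a11: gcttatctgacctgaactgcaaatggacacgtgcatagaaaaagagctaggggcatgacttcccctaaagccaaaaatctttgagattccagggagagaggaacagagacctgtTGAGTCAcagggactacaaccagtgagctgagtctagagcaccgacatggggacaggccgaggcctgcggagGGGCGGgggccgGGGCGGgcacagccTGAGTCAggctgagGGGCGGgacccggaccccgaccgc
Lgals3: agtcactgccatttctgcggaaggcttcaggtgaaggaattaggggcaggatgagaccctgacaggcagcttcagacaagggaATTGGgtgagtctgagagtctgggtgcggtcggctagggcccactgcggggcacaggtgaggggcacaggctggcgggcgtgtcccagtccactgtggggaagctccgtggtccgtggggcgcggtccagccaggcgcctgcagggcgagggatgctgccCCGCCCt
Lgals9: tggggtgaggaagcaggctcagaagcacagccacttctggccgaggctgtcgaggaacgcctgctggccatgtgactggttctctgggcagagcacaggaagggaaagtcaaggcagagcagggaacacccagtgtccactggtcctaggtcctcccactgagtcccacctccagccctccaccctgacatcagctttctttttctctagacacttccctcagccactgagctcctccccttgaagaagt

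The S100a11 promoter held the AP-1 letters TGANTCA in 2 places, 136 to 130 and 38 to 32 bases before the start, and the Sp1 letters GGGCGG in 3. AP-1 letters were present in 6.75% of the 32851 promoters of the table and in 1 of the 6 members, and Sp1 letters in 32.7% of promoters and in 2 members (S100a11, and Lgals3 on the reverse strand). The CCAAT letters stood on the reverse strand of S100a6 and Lgals3, against 33.8% of all promoters, and S100a4 held the TATA box letters TATAAA 31 to 26 bases before its start, as did 12.4% of promoters. The STAT letters TTCNNNGAA, which 7.02% of promoters hold, were in none of these 6 windows, and the promoters of Lgals9 and S100a13 matched none of the 5 motifs. These are matches of letters in a short window and say nothing of binding. No match overlapped another in these members, and each promoter was counted once per motif.

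**Figure D1:**
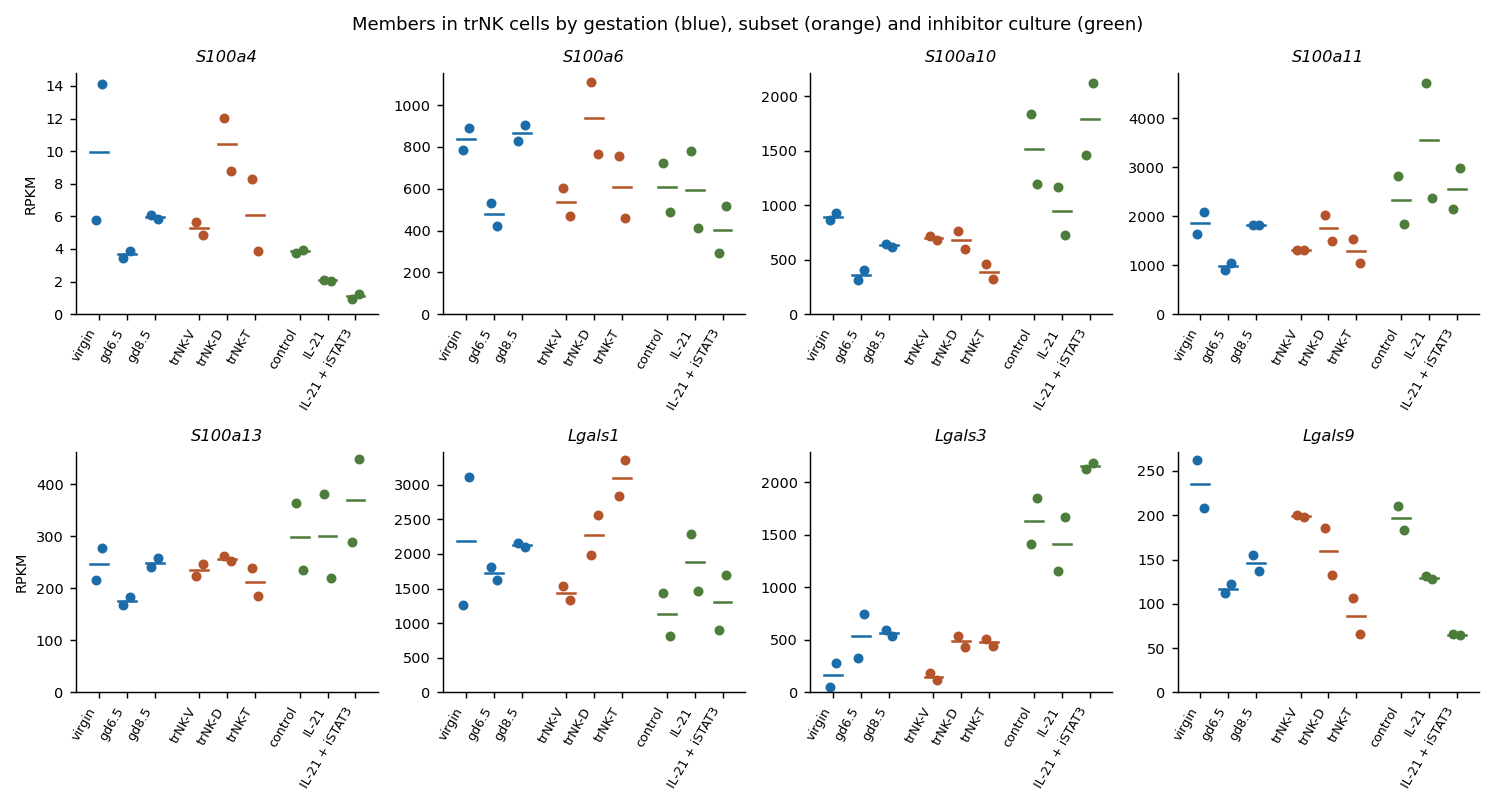
Level of each member in bulk libraries (RPKM), with 1 point per library and the groups along the horizontal axis. Over all 34 bulk libraries, the time course included, S100a11 ran from 910.2 to 8227 RPKM and S100a4 from 0.928 to 67.5. Over the same libraries Lgals3 had the widest range by ratio among the 3 galectins, from 48.2 to 2186. These ranges may reach beyond the points drawn here.

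Per length of transcript, S100a11 was the most abundant member, with a lowest, median and highest RPKM (the read count scaled by exon length and by the total of the library) of 910.2, 2832 and 8227 over the 34 libraries. Lgals1, the gene of galectin-1, followed with 820.5, 2428 and 6097. S100a10, whose product pairs with annexin A2, ran from 314 to 3743 with a median of 1328. The ranges of these 3 genes overlapped widely, so their order differed between groups. S100a6 (calcyclin) had a median of 851 RPKM, Lgals3 of 478, S100a13 of 415 and Lgals9 of 121. S100a4, a gene linked to cell motility, was lowest, with a median of 11.1 RPKM and 14 to 1676 reads per library. S100a4 passed the filter on low values, which asked for over 10 RPKM in each library of at least 1 group, only in the time course, so 7 members were tested in the other 3 experiments and all 8 in the time course. It shares 302 of its 584 exon bases with Gm42674 on the same strand, and Gm42674 was listed at 0 in every library, so the level of S100a4 in bulk is uncertain. In single cells S100a4 was not lowest, with 476 CPM in trNK-like cells against 449 for Lgals3, 290 for S100a13 and 151 for Lgals9. The pseudogenes Gm12854 and Gm7665 share 84.6% and 59.6% of their 31-base words with S100a11, and their counts were 0.0592 to 1.05% and 3.25 to 9.48% of its own.

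The gestation libraries address how trNK cells change as the uterus decidualizes. At gd6.5, S100a10, S100a11 and Lgals9 were lower than in virgin mice, by between 2-fold and 3-fold, and S100a6 was lower by less than 2-fold. At gd8.5 these 4 genes lay above gd6.5 again in every library, without a call. Here fewer cells of a type and less RNA per cell cannot be told apart, as in all the bulk libraries.

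S100a10 measured 862 and 927.5 RPKM in the virgin libraries, 314 and 409 at gd6.5, then 643 and 619 at gd8.5. S100a11, a keratinocyte and leukocyte S100 protein that binds annexin A1, measured 1637 and 2077 in virgin mice, 910.2 and 1051 at gd6.5, then 1811 and 1819 at gd8.5. S100a6 measured 783 and 889.9, then 533 and 422, then 827 and 906. In all 3 genes both gd6.5 libraries were below every virgin and every gd8.5 library, while virgin and gd8.5 overlapped only for S100a6 and S100a11. Lgals9, the gene of galectin-9, a ligand of TIM-3, measured 262 and 208 in virgin mice, 112 and 122 at gd6.5, then 155 and 137 at gd8.5. S100a13, a partner in the release of fibroblast growth factor 1, measured 217 and 277.5, then 168 and 183, then 241 and 258. The 3 groups of Lgals9 did not overlap at all, with virgin mice highest, and S100a13 was again lowest at gd6.5.

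Galectin-1 and galectin-3 did not follow this order. Lgals3 measured 48.2 and 278 RPKM in the virgin libraries, 330.3 and 742 at gd6.5, then 596 and 539 at gd8.5, so that both pregnant groups lay above both virgin libraries, which were themselves far apart. Without overlap, 36.4% of all genes tested lay above the virgin libraries at gd6.5. At gd8.5, 28.6% lay above them and 18.1% below. Lgals1 measured 1260 and 3103 in virgin mice, 1816 and 1628 at gd6.5, then 2163 and 2100 at gd8.5, and the virgin libraries enclosed all the others. S100a4 stood at 5.75 and 14.1 in virgin mice, 3.46 and 3.89 at gd6.5, then 6.11 and 5.84 at gd8.5.

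In the edgeR quasi-likelihood test with Benjamini-Hochberg adjustment over all 4504 genes tested, where a call needed a fold change over 2 as well as an adjusted p under 0.05, 3 of the 7 members tested were called lower at gd6.5 than in virgin mice, where 6.17% of all genes were called. The log2 fold change was −1.39 (SE 0.18, adjusted p = 0.028) for S100a10, −1.01 (SE 0.18, adjusted p = 0.0311) for S100a11 and −1.09 (SE 0.18, adjusted p = 0.0303) for Lgals9, each with 2 of 2 gd6.5 libraries below both virgin libraries. Lgals3 had the largest fitted difference, 1.63 (SE 0.77), and its adjusted p in edgeR was 0.195. Of the 7 members, 5 lay below both virgin libraries in both gd6.5 libraries, as did 24.1% of all genes tested. DESeq2 called 3 of the members and limma-voom 2, without S100a11. The median log2 fold change of the 7 members was −0.89, against −0.02 for all genes. All 3 calls were lost in edgeR when either gd6.5 library was left out, with adjusted p up to 0.213 for S100a10, 0.263 for S100a11 and 0.262 for Lgals9, and with the fit limited to these 2 groups. Without virgin replicate 1 the fold of Lgals9 fell below the limit (log2 −0.89), and without virgin replicate 2 that of S100a11 did (−0.76), while Lgals3 was then called higher (3.45). Lgals3 was not called without virgin replicate 1 (0.89, adjusted p = 0.173 in edgeR) or without gd6.5 replicate 2 (0.92, adjusted p = 0.588 in edgeR), so its value rests on single libraries.

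Marker sums of several cell types moved with this comparison, trNK cells included. The summed RPKM of 5 monocyte markers was 221 to 363 in virgin mice and 133 to 167 at gd6.5 (Chil3 at 0 in both), that of 8 macrophage markers 26 to 26.5 and 10.5 to 13.1 (Mrc1 at 0 in both, Csf1r also in virgin mice and Adgre1 also at gd6.5), and that of the 6 dividing cell markers 123 to 170 and 241 to 341, with none at 0. The 4 trNK markers summed to 1222 to 1241 RPKM in virgin mice and 710 to 741 at gd6.5, 5 NK markers to 7068 to 9547 and 5093 to 5556, both with none at 0, and 8 T cell markers to 468 to 599 and 280 to 421 (Cd4, Cd8a and Cd8b1 at 0 in both, Cd3e also in virgin mice). The 5 epithelial markers summed to 9.64 to 32.7 RPKM in virgin mice, with none at 0, and 43.3 to 44.4 at gd6.5 (Krt19 at 0), higher at gd6.5 without overlap, as Lgals3 was. Their part in the result was not tested.

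Between gd8.5 and virgin mice, edgeR called 0 of the 7 members, where 0.422% of all genes were called, and 2 members (S100a10 and Lgals9) had an unadjusted p below 0.05. DESeq2 and limma-voom called 0 as well. Lgals3 again had the largest difference, with a log2 fold change of 1.74 (SE 0.77, adjusted p = 0.376 in edgeR), and without virgin replicate 2 this became 3.55 and was called, while without virgin replicate 1 it became 0.98 and was not (adjusted p = 0.309 in edgeR). Between gd8.5 and gd6.5, 6 of 7 members were above gd6.5 in both libraries, as were 32.9% of all genes, but edgeR called 0 members and 0% of genes, with 4 members at an unadjusted p below 0.05, and DESeq2 and limma-voom called 0. These 3 comparisons share their groups, so they are not independent of each other. For these 7 members the median log2 fold change from gd6.5 to gd8.5 was 0.53, against 0.01 for all genes.

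**Figure D2:**
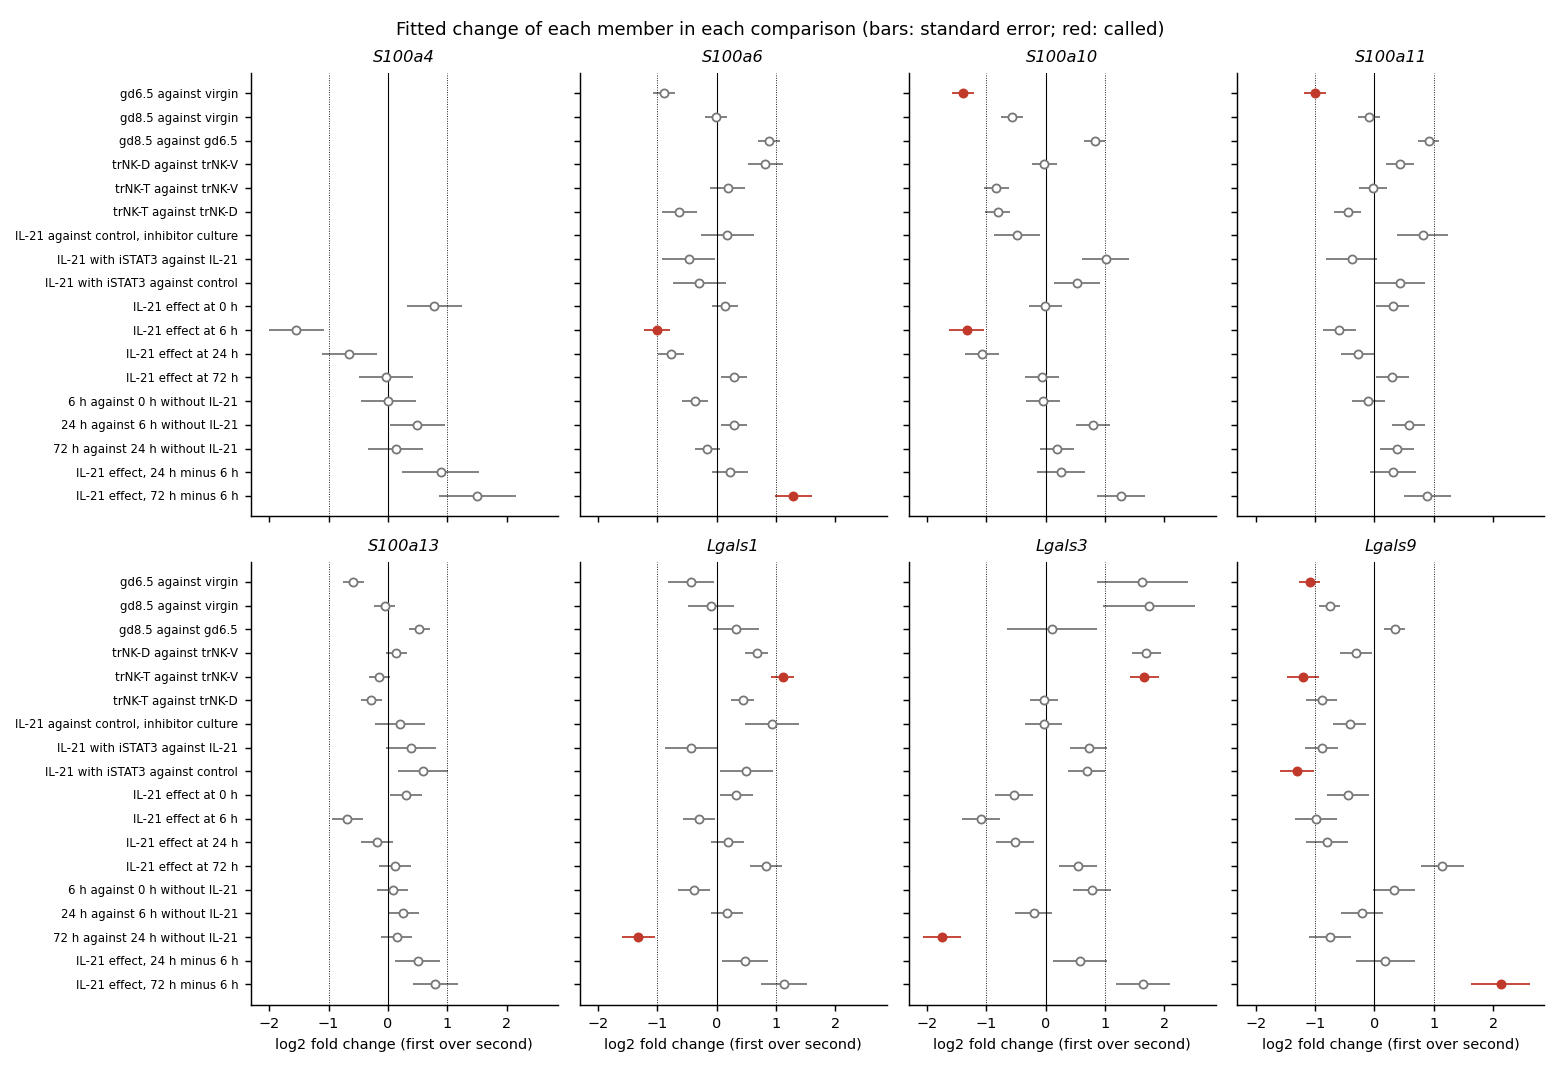
Fitted log2 fold change of each member in each comparison, with filled marks for the calls of the edgeR test. The gd6.5 and IL-21 6 h comparisons hold mostly negative values, with medians of −0.89 and −0.99, and the trNK-T comparison splits, with Lgals1 and Lgals3 higher and Lgals9 lower.

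Among partners, Anxa1, the annexin bound by S100a11, was lower at gd6.5 together with S100a11. It measured 191 and 208 RPKM in virgin mice and 78.9 and 78.7 at gd6.5, without overlap, and its log2 fold change was −1.43 (SE 0.14, adjusted p = 0.0228 in edgeR). It was 1 of 7 tested genes, of 16 in the list of S100 partners and receptors, to be called, where 6.17% of all genes were called. Of 9 tested galectin partners in a list of 14, only Lamp1, a lysosomal membrane glycoprotein that galectins bind, was called, with 98.5 and 94.8 RPKM in virgin mice against 11.8 and 4.24 at gd6.5 (log2 −3.67), and it was also called at gd8.5 (−3.68), although it passed the filter on low values only through the virgin group, where it is high. Of 5 tested enzymes of glycan branching, in a list of 12, Mgat2 was called higher at gd6.5 (log2 1.06). None of these lists held another call at gd6.5 or gd8.5 against virgin mice or between the 2 gestational days. With either gd6.5 library left out 0 genes were called in all at gd6.5, and with either gd8.5 library left out 0 at gd8.5, so the calls of Anxa1, Lamp1 and Mgat2 are lost as well, and those at gd6.5 also with only the 2 groups in the fit.

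The subset libraries address differentiation within gd8.5, from trNK-V through trNK-D to trNK-T. Both Lgals1 and Lgals3 were higher in trNK-T than in trNK-V and Lgals9 was lower, so the 3 galectins did not move together. None of the 4 tested S100 members passed both limits. Lgals3 measured 185 and 118 RPKM in trNK-V, 540.5 and 433 in trNK-D and 511 and 444 in trNK-T. Lgals1 measured 1540 and 1334 in trNK-V, 1982 and 2563 in trNK-D and 2842 and 3351 in trNK-T. Lgals3 was thus low in trNK-V with trNK-D and trNK-T overlapping, whereas Lgals1 was higher in each later subset with no overlap. Lgals9 measured 199.9 and 198 in trNK-V, 186 and 133 in trNK-D and 107 and 65.5 in trNK-T, and was lower in each later subset without overlap. Such separation was common. Of all genes tested, 36.5% lay above and 38.3% below without overlap in trNK-T against trNK-V. These shares were 25.9% and 27.5% for trNK-D against trNK-V, and 29.4% and 29.5% for trNK-T against trNK-D.

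Of the S100 members, S100a10 measured 713 and 682 RPKM in trNK-V, 760.5 and 600.4 in trNK-D and 457.5 and 324 in trNK-T, which lay below both other subsets. S100a6 measured 606 and 468, 1112 and 764, and 758 and 458 in that order. S100a11 measured 1309 and 1304 in trNK-V, 2026 and 1492 in trNK-D and 1540 and 1037 in trNK-T. Both genes were highest in trNK-D, which lay above trNK-V without overlap and overlapped trNK-T for S100a11. S100a13 measured 223 and 246, 262 and 252, and 239 and 185, and S100a4 measured 5.66 and 4.88 in trNK-V, 12 and 8.79 in trNK-D and 8.29 and 3.9 in trNK-T.

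In the edgeR test over 4683 genes, 3 of 7 members were called between trNK-T and trNK-V, where 21.2% of all genes were called. The log2 fold change was 1.11 (SE 0.19, adjusted p = 0.00882) for Lgals1, 1.66 (SE 0.24, adjusted p = 0.00543) for Lgals3 and −1.20 (SE 0.27, adjusted p = 0.0178) for Lgals9, in 2 of 2 libraries each. S100a10 had an adjusted p of 0.026 with a fold below 2 (log2 −0.83). Over the leave-one-out fits Lgals3 stayed called, with a log2 fold change of 1.44 to 2.09 and an adjusted p of 0.0141 to 0.0343. Lgals1 lost its call without trNK-V replicate 2 or trNK-T replicate 2 (adjusted p up to 0.0615 in edgeR), and Lgals9 without either of these or trNK-V replicate 1 (up to 0.0872). Beside these differences, macrophage markers had sums of 37.6 to 116 RPKM in trNK-V (none of 8 at 0), 65.3 to 87.8 in trNK-D (none at 0) and 12.4 to 18.4 in trNK-T (Csf1r at 0), lower in trNK-T as Lgals9 was. The 5 epithelial markers summed to 11 to 25.7, 31.2 to 44.1 and 64.7 to 64.8 RPKM, higher in trNK-T as Lgals1 and Lgals3 were. Krt8 was at 0 in all 3 subsets, Krt19 also in trNK-D and trNK-T and Krt18 in trNK-T. In trNK-T the sum thus came only from genes of the list other than these 3 keratins. The T cell sum was 531 to 586, 389 to 398 and 237 to 381 (Cd8a at 0 in all). The 6 stromal markers summed to 4.6 to 51.9, 2.11 to 4.77 and 0.513 to 0.688 RPKM (Pdgfra at 0 in trNK-D), also lower in trNK-T. The 5 NK markers summed to 8661 to 9348, 6026 to 8103 and 3907 to 4941 RPKM with none at 0, lower in trNK-T as Lgals9 was. The 5 monocyte markers summed to 346 to 601, 594 to 684 and 151 to 299 RPKM (Chil3 at 0 in trNK-V and trNK-T), and the 4 trNK markers to 1379 to 1388, 979 to 1173 and 644 to 799 with none at 0. Dividing cell markers summed to 79.4 to 115, 54.8 to 319 and 225 to 331 in that order, and their part in these results was not tested.

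Between trNK-D and trNK-V, edgeR called 0 of 7 members and 0.32% of all genes, with 3 members at an unadjusted p below 0.05. Lgals3 was just outside the limit, with a log2 fold change of 1.70 (SE 0.24, adjusted p = 0.0556), and both DESeq2 and limma-voom called it. Between trNK-T and trNK-D edgeR called 0 of 7 members against 1.75% of genes, with 2 at an unadjusted p below 0.05 and 0 by DESeq2 or limma-voom. The comparisons of trNK-D and of trNK-T share the trNK-V libraries.

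Havcr2, the gene of the galectin-9 receptor TIM-3, was called higher in trNK-T than in trNK-V (log2 4.62, SE 1.24), although it passed the filter on low values only through trNK-T, while Lgals9 was called lower there. In the galectin partner list, of 11 tested genes, P4hb (1.69), a disulfide isomerase that binds galectin-9, and Tnfrsf9 were also called higher, and Cd44 (−1.13) and Ptprc (−1.18), both surface glycoproteins that galectins bind, lower. Tnfrsf9 encodes 4-1BB, which was used for the sort, so its difference is no finding. Of 8 tested S100 partners, Ahnak (−1.62), a scaffold bound by the S100a10 and annexin A2 complex, and the protease gene Ctss (−1.98) were called lower. Both other galectins tested, Lgals4 (−1.13) and Lgals8 (−1.26), were called lower, as was the sialyltransferase gene St3gal6 (−1.02), 1 of 5 tested glycan enzymes. The counts of these lists stand beside 21.2% of all genes called between trNK-T and trNK-V. Of these lists, only Ctss (−2.54) and Tnfrsf9 were called between trNK-T and trNK-D, and no gene between trNK-D and trNK-V. Without trNK-T replicate 2, 0 genes in all were called between trNK-T and trNK-D, so both calls are lost.

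The inhibitor culture asks which changes with IL-21 depend on STAT3. Among the members only Lgals9 was called, lower with IL-21 and iSTAT3 than in the control. Lgals9 measured 211 and 183 RPKM in the control, 131.5 and 128 with IL-21 and 66.2 and 64.3 with IL-21 and iSTAT3. Both IL-21 groups lay below the control and the iSTAT3 group below IL-21, without overlap. Of all genes tested, 30.9% lay below in this way for IL-21 against the control, and 10.7% above. For iSTAT3 these shares were 28.9% and 20% against IL-21, and 39.6% and 16.5% against the control. Lgals3 measured 1409 and 1853 in the control, 1157 and 1666 with IL-21 and 2130 and 2186 with iSTAT3 added. In every group Lgals3 was above its level in all other bulk libraries of this series. Lgals1 measured 1441 and 820.5 in the control, 2293 and 1461 with IL-21 and 908.5 and 1698 with iSTAT3, so control and IL-21 did not overlap while iSTAT3 overlapped both.

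S100a10 measured 1837 and 1192 RPKM in the control, 1166 and 723.5 with IL-21 and 1463 and 2119 with iSTAT3. S100a11 measured 2826 and 1831, 4723 and 2366, and 2146 and 2972 in that order. S100a10 was lower with IL-21 than in both other groups without overlap, whereas S100a11 overlapped in all pairs. S100a6 measured 725 and 489 RPKM in the control, 781 and 412 with IL-21 and 293 and 516 with iSTAT3. S100a13 measured 364 and 234.5, 381 and 219.8, and 289 and 449 in that order. Both overlapped throughout, and S100a4 stood at 3.75 and 3.95 in the control, 2.11 and 2.03 with IL-21 and 0.928 and 1.25 with iSTAT3.

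For IL-21 against the control, edgeR called 0 of 7 members and 0.289% of 4158 genes, with 0 members at an unadjusted p below 0.05 and 0 by DESeq2 or limma-voom. For IL-21 with iSTAT3 against IL-21 it called 0 of 7 members and 2.96% of genes, with 3 members at an unadjusted p below 0.05 and 0 by the other tools, and S100a10 had the largest difference without overlap (log2 1.01, SE 0.39, adjusted p = 0.217). Against the control, 1 of 7 members and 4.74% of genes were called, with a log2 fold change of −1.31 (SE 0.28, adjusted p = 0.0423 in edgeR) for Lgals9. This call was lost when any 1 of the 4 libraries was left out (log2 −1.36 to −1.12, adjusted p 0.151 to 0.292) and when the fit held only these 2 groups. The last 2 comparisons share the iSTAT3 libraries, and the first and the last share the control. Between 11.1 and 14.6% of genes differed over 2-fold between the 2 libraries of a group here, which leaves wide errors on every member.

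In this culture the macrophage marker sums were 18.9 to 28.9 RPKM, with 5 or 6 of the 8 genes at 0, C1qa, Csf1r and Adgre1 among them in all 3 groups. Dividing cell markers summed to 129 to 200 in the control, 157 to 169 with IL-21 and 49.6 to 81.7 with iSTAT3, and the trNK markers to 966 to 1099, 313 to 367 and 228 to 234, none of either list at 0. In the same order the monocyte sum was 351 to 418, 222 to 254 and 194 to 198 (Chil3 and Lyz2 at 0 in all), the T cell sum 509 to 571, 322 to 441 and 236 to 290 (Cd4 at 0 in all) and the NK sum 6170 to 7993, 5616 to 7606 and 3100 to 3863 (none at 0). Lgals9 was thus lower where several of these sums were lower, and their part was not tested. In the partner lists, Havcr2 measured 41.8 and 55.1 RPKM with iSTAT3 and 0.059 and 0.0202 in the control and was called, although it passed the filter on low values only through a group where it is high. Further, Cacybp, the calcyclin-binding protein gene whose product binds S100a6, was called higher with iSTAT3 (369 and 494) than in the control (80.8 and 60.7, log2 2.90) and than with IL-21 (log2 2.69). No gene of the partner or glycan lists was called for IL-21 against the control.

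In the time course all 8 members had lower levels with IL-21 at 6 h in both libraries, and 2 of them were called. S100a10 measured 2036 and 2589 RPKM at 6 h without IL-21 and 954.6 and 938 with it. S100a6 measured 1232 and 1449 without and 663 and 713.5 with IL-21. Neither gene overlapped, and each IL-21 library was well below both controls. S100a4 measured 36.2 and 40.1 without IL-21 and 10.2 and 16.8 with it, and Lgals3 977 and 651 without and 386.5 and 391.5 with it. Both differed by over 2-fold in the fit but were not called. S100a11 (3596 and 4466 against 2662 and 2837), S100a13 (616 and 794 against 450.5 and 455), Lgals1 (3485 and 4360 against 3418 and 3150) and Lgals9 (189.8 and 125 against 80.6 and 81.8) were below as well, Lgals1 by the smallest margin.

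**Figure D3:**
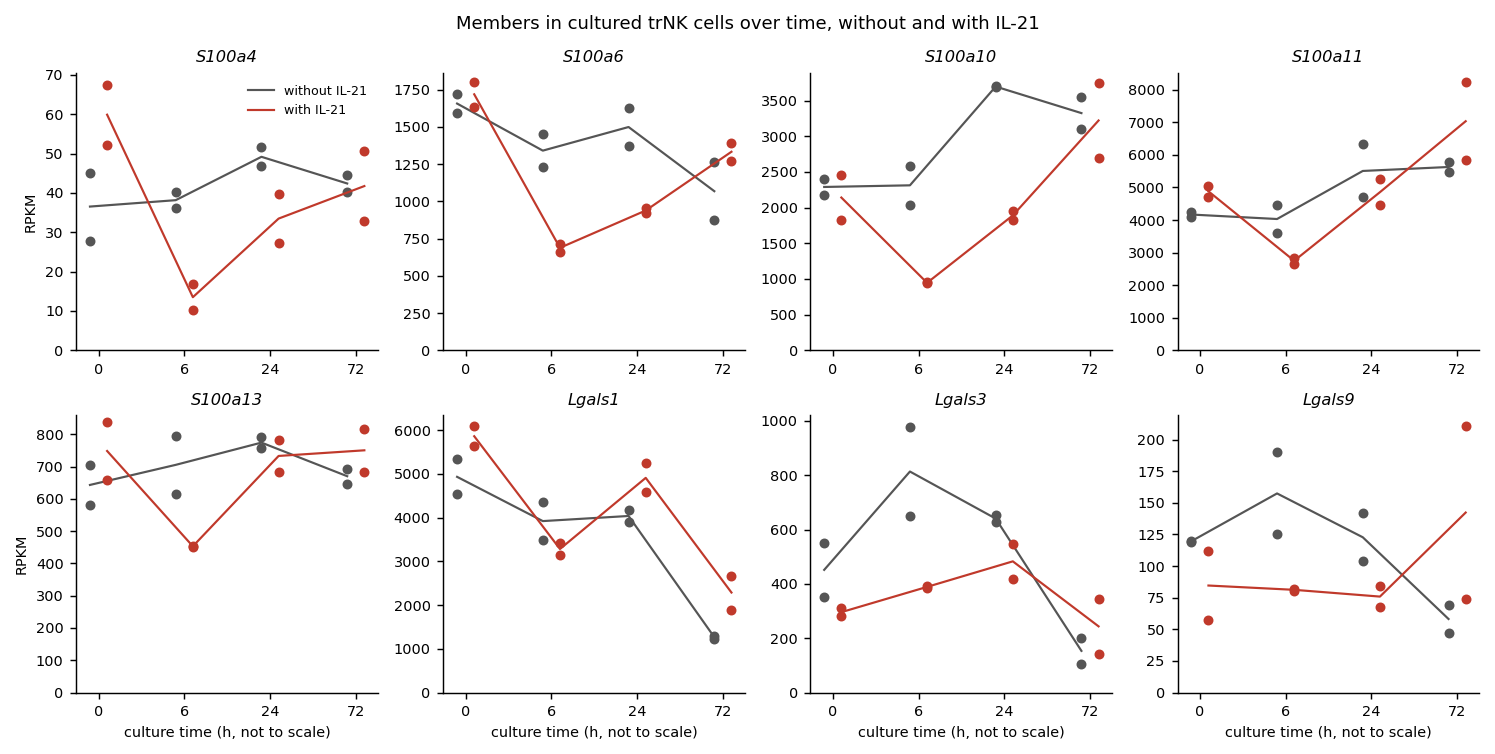
Level of each member in the time course (RPKM), with 1 point per library at 0, 6, 24 and 72 h, and lines through the means of the 2 libraries without and with IL-21. At 6 h the IL-21 points lie below the control points in all 8 panels. Without IL-21, 7 of the 8 members, Lgals1 and Lgals3 among them, lie below their 24 h values at 72 h.

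In the edgeR test over 3503 genes, 2 of 8 members were called at 6 h, where 1.97% of genes were called. The log2 fold change was −1.33 (SE 0.29, adjusted p = 0.0395) for S100a10 and −1.0 (SE 0.22, adjusted p = 0.0399) for S100a6, in 2 of 2 libraries each. It was −1.54 (SE 0.47, adjusted p = 0.157 in edgeR) for S100a4 and −1.09 (SE 0.32, adjusted p = 0.138) for Lgals3. All 8 members lay below both control libraries, as did 28.7% of all genes tested, and their median was −0.99 against −0.02 for all genes. Both calls were lost in edgeR when any 1 of the 4 libraries was left out (adjusted p 0.1 to 0.356 for S100a6 and 0.1 to 0.341 for S100a10), and S100a6 also with the scaling factors of DESeq2 or with limma-voom. With only these 2 groups in the fit, S100a4, S100a6, S100a10 and Lgals3 were all called. The mitochondrial share of counts was 3.57 to 3.78% without and 1.9 to 2.54% with IL-21 at 6 h, and the trNK marker sum 1253 to 1316 and 577 to 617 RPKM with none of 4 at 0. The monocyte sum was 217 to 221 and 116 to 134 (Chil3 and Fn1 at 0 in both, Lyz2 also with IL-21), the macrophage sum 24.4 to 29.2 and 11 to 18.6 (6 of 8 at 0 in each group) and the T cell sum 546 to 556 and 423 to 449 (Cd8a at 0 in both). The 5 NK markers summed to 12199 to 12997 and 8589 to 9879 RPKM with none at 0. The part of these in the result was not tested.

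At 0 h, S100a10 measured 2405 and 2174 RPKM without IL-21 and 2462 and 1821 with it, S100a6 1719 and 1594 against 1803 and 1634, and S100a13 582 and 704 against 839 and 657, and all 3 overlapped. Lgals9 measured 119 and 120.1 without and 57.6 and 112 with IL-21, and Lgals3 552 and 351.5 without and 280.3 and 312 with it, both below the control without overlap. S100a4 measured 45.2 and 27.9 without and 52.2 and 67.5 with IL-21, and it was above the control without overlap, as were S100a11 (4238 and 4099 against 5057 and 4706) and Lgals1 (4536 and 5334 against 6097 and 5631). Without overlap, 19.7% of all genes tested lay below the control at 0 h and 13.4% above it. For the effect of IL-21 at 0 h, edgeR called 0 of 8 members and 0% of genes, with 0 members at an unadjusted p below 0.05 and 0 by DESeq2 or limma-voom. The labels give these libraries 0 h of culture, so their differences are not read as a response to IL-21.

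At 24 h, S100a10 measured 3685 and 3708 RPKM without IL-21 and 1824 and 1958 with it. It did not overlap, and its log2 fold change was −1.07 (SE 0.29, adjusted p = 0.102 in edgeR). S100a6 measured 1374 and 1624 against 924 and 953.5 and S100a4 51.5 and 46.8 against 27.2 and 39.8, both below without overlap, as were Lgals3 (627 and 654 against 548 and 418) and Lgals9 (104 and 142 against 84 and 67.7), while Lgals1 (3893 and 4186 against 4581 and 5242) was above. S100a11 (4692 and 6320 against 4463 and 5246) and S100a13 (757 and 791 against 684 and 782) overlapped. Without overlap, 27.4% of all genes tested lay below the control at 24 h and 39.8% above it. Here edgeR called 0 of 8 members and 1.66% of genes, with 3 members at an unadjusted p below 0.05. DESeq2 called 1, which was S100a10, and limma-voom 0.

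At 72 h no member lay below the control without overlap, as 16.6% of all genes tested did. Lgals9 measured 69 and 47.3 RPKM without IL-21 and 211 and 73.7 with it, and Lgals1 measured 1299 and 1235 without and 1899 and 2677 with it. Both were higher with IL-21 without overlap, although the IL-21 libraries of Lgals9 were far apart. S100a6 (1261 and 875.5 without IL-21 against 1271 and 1395 with it) and S100a11 (5780 and 5475 against 5838 and 8227) also lay above without overlap, each by a small margin. Of all genes tested, 21.6% lay above in this way. Lgals3 (201 and 106 against 344 and 143) and S100a10 (3545 and 3104 against 2699 and 3743) overlapped, as did S100a4 (44.6 and 40.2 against 32.9 and 50.6) and S100a13 (647 and 693 against 684 and 816). For the effect of IL-21 at 72 h, edgeR called 0 of 8 members and 8.08% of genes, with 2 members at an unadjusted p below 0.05, and the log2 fold change of Lgals9 was 1.15 (SE 0.36, adjusted p = 0.0679). DESeq2 called 1 (Lgals9) and limma-voom 0, and edgeR called Lgals9 without 72 h replicate 1 or without IL-21 72 h replicate 2, while without IL-21 72 h replicate 1 its log2 fold change was 0.49 and not called (adjusted p = 0.445 in edgeR). The mitochondrial share was 8.44 to 11.8% without and 4.37 to 5.73% with IL-21 in these libraries, against 0.861 to 5.42% in the other 30, and its part was not tested.

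The effect of IL-21 itself differed between 6 h and 72 h for 2 of 8 members, where this interaction was called for 4.17% of genes. The difference of the log2 effects (72 h minus 6 h) was 1.29 (SE 0.31, adjusted p = 0.0391 in edgeR) for S100a6 and 2.12 (SE 0.50, adjusted p = 0.0383) for Lgals9. The median over the 8 members was 1.28, against 0.14 over all genes. Both calls were lost without 6 h replicate 1, IL-21 6 h replicate 1 or 2, or 72 h replicate 2 (adjusted p up to 0.16 for S100a6 and 0.152 for Lgals9), and with only these 4 groups in the fit. Without 6 h replicate 2 S100a6 was not called (adjusted p = 0.15, within 0.00715 to 0.16), without IL-21 72 h replicate 2 its difference fell to 0.91 and was not called, and without IL-21 72 h replicate 1 the calls were S100a6, S100a10, S100a11 and Lgals1. Between 24 h and 6 h the same interaction was called for 0 of 8 members and 0% of genes in edgeR, with 0 members at an unadjusted p below 0.05 and 0 by DESeq2 or limma-voom.

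Without IL-21, Lgals1 and Lgals3 fell between 24 h and 72 h of culture. Lgals1 went from 3893 and 4186 RPKM to 1299 and 1235, and Lgals3 from 627 and 654 to 201 and 106. Neither overlapped. Of the 8 members these 2 were called in edgeR, where 14.8% of genes were called, with log2 fold changes of −1.32 (SE 0.28, adjusted p = 0.00902) and −1.75 (SE 0.33, adjusted p = 0.00473). Lgals1 lost its call without 24 h replicate 2 (log2 −1.27, adjusted p = 0.0622, within 0.0164 to 0.0622 over the leave-one-out fits), and Lgals3 kept its call in each of these fits (adjusted p 0.00138 to 0.0278) but not with only these 2 groups in the fit. Dividing cell markers went from 503 to 535 RPKM at 24 h to 3.51 to 7.9 at 72 h with none of 6 at 0. The macrophage sum was 38.4 to 71.8 at 24 h and 0.00754 to 9.19 at 72 h (5 and 6 of 8 at 0, C1qa, C1qb, C1qc and Adgre1 in both), and the mitochondrial share 4.58 to 4.76% and 8.44 to 11.8%. The part of these was not tested. Between 0 h and 6 h, edgeR called 0 of 8 members and 0% of genes, with 1 member at an unadjusted p below 0.05, and between 6 h and 24 h 0 of 8 members and 0.0856% of genes, also with 1. DESeq2 and limma-voom called 0 in both. These comparisons share the control libraries with those of IL-21. Over all 16 libraries S100a13 ran from 450.5 to 839 RPKM and S100a4 from 10.2 to 67.5.

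In the time course, 5 S100 partners, 8 galectin partners and 4 glycan enzymes were tested. St3gal6 was called lower with IL-21 at 6 h (log2 −1.28) and in the interaction of 72 h with 6 h (1.24). Tnfrsf9 (−1.65) and Lamp2 (1.24), a second lysosomal glycoprotein bound by galectins, were called between 24 h and 72 h without IL-21. Without IL-21 6 h replicate 1, 0 genes in all were called at 6 h, so the first of these calls is lost. No other gene of these lists was called in this experiment.

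Of 11 other S100 genes, only S100a1 passed the filter, in each experiment, and it was not called. In single cells S100a1 had 152 CPM in trNK-like cells, beside 151 for Lgals9. S100a8, one chain of calprotectin, reached at most 0.956 RPKM and S100a9 was listed at 0 in every library. Of 7 other galectin genes, 1 or 2 were tested per experiment, and Lgals4 and Lgals8 were called only in trNK-T against trNK-V, as given above.

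Across the 34 libraries, on log2(CPM + 1) with the mean of each experiment subtracted, S100a6, S100a10, S100a11 and S100a13 varied together, with Pearson r between 0.671 and 0.89 for their pairs. Lgals3 stood apart from these 4 S100 genes (−0.266 to −0.08) and was closer to Lgals1 (0.353), while Lgals9 ran against Lgals1 (−0.237) and Lgals3 (−0.213). The genes most like each member, among 2662 that passed the filter in every experiment, were S100a1 and Cmc1 for S100a6 (r 0.816 and 0.81), Gm15427 and Paip2 for S100a10 (0.925 and 0.914), Srgn and Rps15a for S100a13 (0.877 and 0.87) and Atp5o and Cox5a for Lgals1 (0.888 and 0.867). For S100a11 they were Gm7665 (0.929), whose reads it may share, and Tmsb4x (0.893). Tnfrsf18 and Fam173a were most like Lgals9 (0.839 and 0.829), and Epcam and Gzmf were most like Lgals3 (0.756 and 0.735), with Spearman's rho of 0.576 and 0.598. The points share libraries, groups and depth, so these values describe the 34 libraries and carry no p.

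The single cells address which uterine cells hold these transcripts. After limits of over 200 and under 2500 genes and under 10% mitochondrial UMIs, and removal of 5 mast cells, 8902 of 15175 cells remained, with a median of 2576 UMIs. The members and their relatives were left out of the clustering, so the classes do not rest on them. Classes named from fixed markers were trNK-like (4160 cells, median 3148 UMIs), cNK-like for conventional natural killer cells (1007 cells, 1728 UMIs), ILC1-like (434), macrophage-like (874), B-like (305), T-like (259), stromal-like (204), erythroid-like (90) and neutrophil-like (13), and 1556 cells stayed unnamed. These cells are 1 pooled sample, so there is no test, and the intervals below (95%, exact) cover counting error only.

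S100a4, S100a6, S100a11 and Lgals3 were higher in trNK-like than in cNK-like cells, by intervals that did not overlap. The share of all genes whose intervals are apart in this way was not computed. The number of members that differ therefore has no background here and says nothing particular of them. S100a4 had 476 CPM, its UMIs scaled to the total of the class, in trNK-like cells and 114 CPM in cNK-like cells, a ratio of 4.17 (3.64 to 4.79). Its cNK-like level (99.5 to 130 CPM) overlapped that of B-like cells (128, 102 to 160) and lay above that of T-like cells (65, 45.5 to 90). Lgals3 had 449 and 106 CPM in the same order, a ratio of 4.25 (3.69 to 4.91), taken over a cNK-like level that lay between those of T-like (93.9 CPM) and B-like cells (136 CPM) and is read as background, so the ratio gives no level for cNK-like cells. S100a6 (2101 and 943 CPM, ratio 2.23, 2.12 to 2.34) and S100a11 (1107 and 487, ratio 2.27, 2.13 to 2.43) differed by less. The other 4 members were lower in trNK-like cells, with ratios of 0.585 (0.53 to 0.646) for Lgals9, at 151 and 258 CPM, 0.795 (0.755 to 0.837) for S100a10, at 712 and 896, 0.811 (0.783 to 0.84) for Lgals1, at 1552 and 1914, and 0.875 (0.804 to 0.953) for S100a13, at 290 and 331. The Lgals9 level of cNK-like cells lay within the intervals of B-like (257 CPM, 219 to 300) and T-like cells (249 CPM, 209 to 294), so it is not told apart from free RNA. That of trNK-like cells (151 CPM, 145 to 158) lay below both intervals. Neither side of the Lgals9 ratio is thus above this level. For Lgals1 and S100a13 this direction rests on which clusters are named trNK-like. The trNK-like cluster 4 (1999 CPM of Lgals1) and the unnamed cluster 5 (3171), described below, were above cNK-like cells, and for S100a13 cluster 5 was as well (382, 362 to 402), while cluster 4 (344, 325 to 364) overlapped them. The number of members higher in trNK-like cells was 4 in all 7 settings tried, and S100a13 overlapped when the mast cells were kept. The ratios moved more than this number. They ran from 2.15 to 4.17 for S100a4, 2.47 to 4.52 for Lgals3, 1.54 to 2.23 for S100a6 and 1.6 to 2.28 for S100a11. The lowest came with limits on UMIs per cell or with no upper limit on genes. In the main setting, 4171 cells with 2500 or more genes were left out. With every cell thinned to 1000 UMIs, S100a4 stood at 460 and 116 CPM and Lgals3 at 393 and 102.

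**Figure D4:**
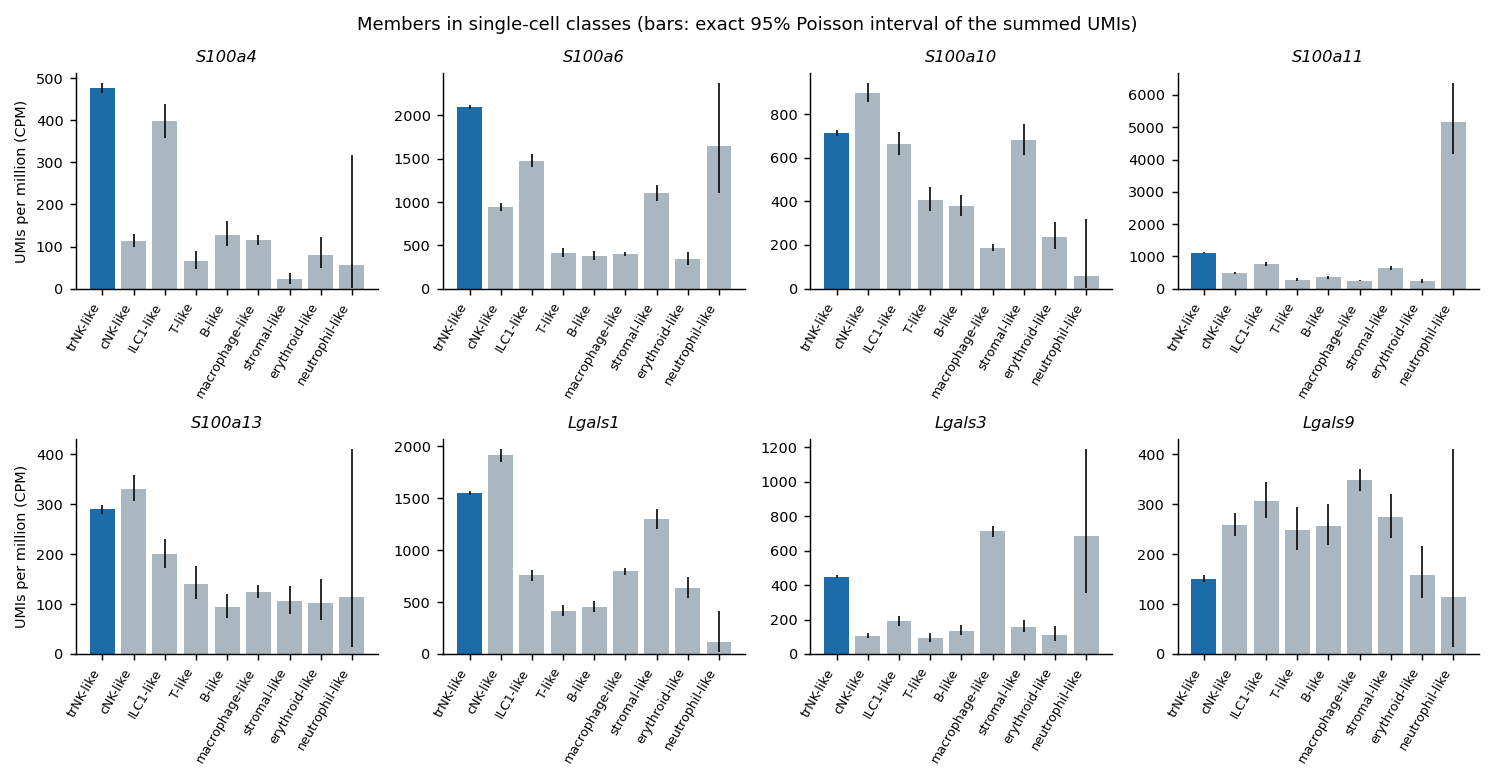
CPM of each member in each named class of single cells, with exact 95% Poisson intervals of the summed UMIs (counting error only). S100a4 is highest in trNK-like cells (476) and ILC1-like cells (397), S100a11 in the 13 neutrophil-like cells (5176) and Lgals3 in macrophage-like cells (713).

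S100a4 was seen in 50.9% (49.4 to 52.4) of trNK-like cells, 44.7% of ILC1-like and 15.7% (13.5 to 18.1) of cNK-like cells. In cells of other lineages, taken here as the level of free RNA, the share was 13.4% (B-like, median 1827 UMIs) and 10.4% (T-like, 1971 UMIs). In stromal-like cells (2432 UMIs) it was lower, at 5.88%. Whether B-like and T-like cells hold transcripts of the members of their own was not tested, so this level is uncertain. Thinned to 1000 UMIs, with 602 shallower cells left out, the share of cells with S100a4 was 29.3% in trNK-like, 9.92% (8.11 to 12) in cNK-like, 6.21% (3.72 to 9.63) in B-like, 4.31% (2.17 to 7.59) in T-like and 1.51% (0.312 to 4.34) in stromal-like cells. The cNK-like interval overlapped that of B-like cells and lay above those of T-like and stromal-like cells. Lgals3 was seen in 47.6% of trNK-like, 16% of cNK-like, 19.7% of B-like and 12.7% of T-like cells, and after thinning in 27.3%, 8.88%, 10% and 7.06%. The cNK-like share of Lgals3 lay between those of B-like and T-like cells and is read as background. Outside the NK classes, Lgals3 reached 713 CPM in macrophage-like cells, in which Lgals9 was also highest of the named classes (348). S100a6 had 1478 and S100a4 397 CPM in ILC1-like cells, whose 10 leading genes included Tcrg-C1, Tcrg-C2, Tcrg-C4 and Cd3e beside Cxcr6 and Il7r and which held 5 of the T cell markers. In stromal-like cells S100a6 reached 1100 CPM and Lgals1 1297, and S100a4 was lowest there, at 21.9 CPM. The 13 neutrophil-like cells held 5176 CPM of S100a11. Their levels of S100a8 (12570 CPM) and S100a9 (11830 CPM) were above those of the unnamed cells (60.8 and 57.5 CPM), which held 363 and 343 UMIs of these genes against 221 and 208.

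The trNK-like cells fell into 6 clusters, and a further cluster without a name (cluster 5, 705 cells, led by Mt2, Scin, Tmsb15a and Ctsg) carried little Tcf7, a transcription factor gene of early lymphocyte stages. The leading genes of cluster 3 included the heat shock genes Hspb1, Hspa1b and Hspa1a. Those of cluster 6 (median 1947 UMIs) included Gm26917 and Rn7sk, and clusters led by Gm26917 were left unnamed in some other settings. The order below is therefore not read as a series of stages. Ordered by falling Tcf7 within the 6 trNK-like clusters (236, 162, 151, 79.9, 28.5 and 1.64 CPM in clusters 1, 3, 6, 8, 9 and 4), Lgals3 stood at 234, 279, 366, 306, 605 and 737 CPM and at 1146 in cluster 5. Lgals1 stood at 1065, 1043, 1372, 1884, 1664 and 1999 CPM and at 3171 in cluster 5. Lgals9 ran the other way, at 195, 182, 183, 143, 146 and 96.8 CPM and at 77.8 in cluster 5. All of these values lay below those of B-like (257 CPM) and T-like cells (249 CPM), which are taken here as the level of free RNA. As the clusters also differ in depth, this fall is not told apart from background. Lgals1 and Lgals3 thus had their highest values at the Tcf7-low end, where Cd55, one of the sort proteins of the subset libraries, was also highest (501 and 532 CPM in clusters 4 and 5, against 129 in cluster 1). The lowest values of Lgals9 were there too but, for the reason given, are not read as a difference in expression.

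Among the S100 members, S100a6 and S100a4 had no extreme value at the Tcf7-low end, while S100a10 was lowest and S100a11 and S100a13 were highest in cluster 5. S100a6 was highest in cluster 9 (3110 CPM; led by Itga3, Ccl1 and Gzmb) and lowest in cluster 8 (1365), the cluster of dividing cells, and S100a4 was likewise highest in cluster 9 (712), with 355 and 356 CPM in clusters 8 and 1. S100a10 stood between 667 and 831 CPM in clusters 1, 3, 6, 8 and 9 and at 544 and 462 in clusters 4 and 5. S100a11 ran from 915 in cluster 1 to 1493 in cluster 5, and S100a13 from 237 in cluster 3 to 382 in cluster 5. The median depth was 2528 UMIs in cluster 1, 5418 in cluster 4 and 5658 in cluster 5, so the clusters also differed in depth, whose part was not tested.

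**Figure D5:**
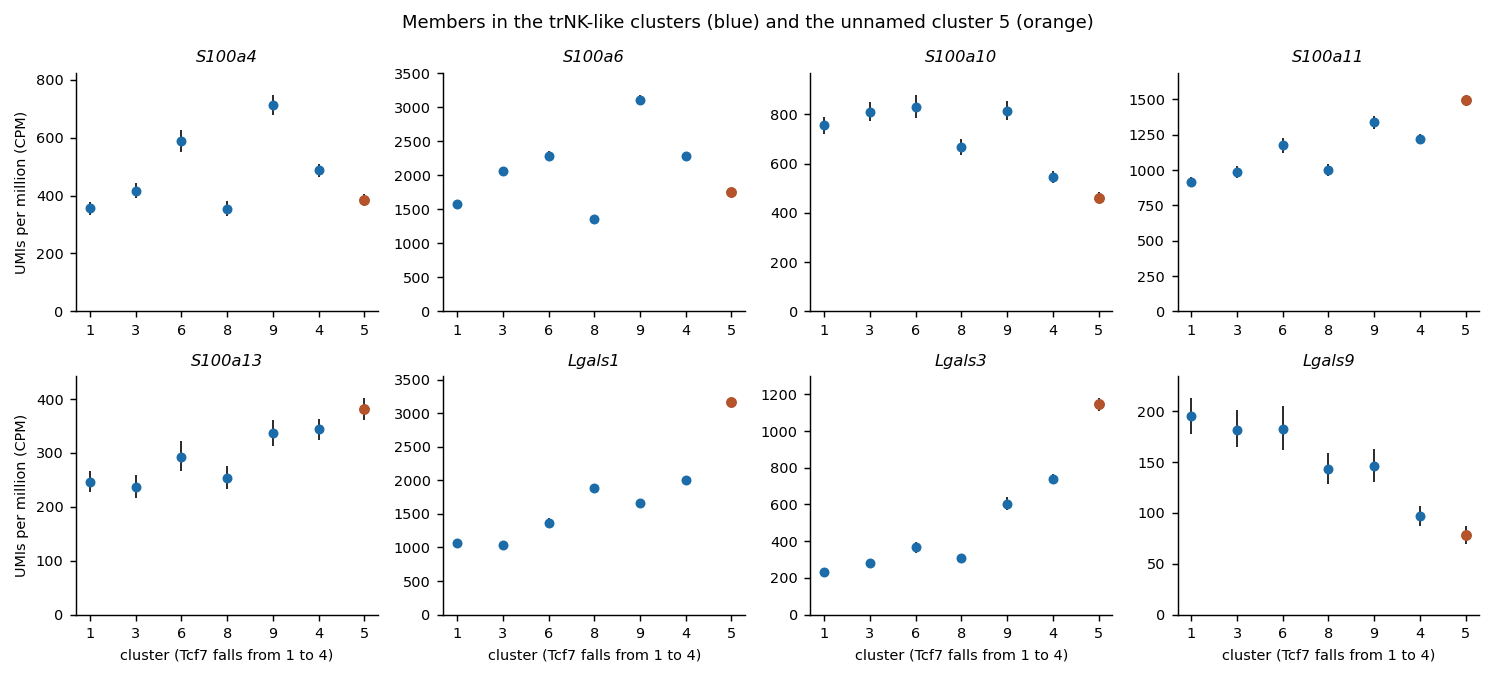
CPM of each member in the 6 trNK-like clusters and in the unnamed cluster 5 (orange), ordered by falling Tcf7 with cluster 5 last, with exact 95% Poisson intervals (counting error only). Lgals3 goes from 234 to 737 and Lgals9 from 195 to 96.8 between clusters 1 and 4.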

How the data were processed

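The data are read counts from 34 bulk libraries, with UMI counts from single cells that form 1 pool. Libraries for chromatin accessibility were not analysed here. The authors aligned bulk reads to mm10 with HISAT2 2.1.0 and deposited raw counts per gene, without normalization, beside exon positions and gene length. The processing notes name featureCounts and the methods RSEM. cDNA was made with SMART-Seq HT in the first 3 experiments and a Vazyme kit in the time course, so levels were tested only within an experiment. The deposited single-cell files hold UMI counts from the BD Rhapsody pipeline on GRCm39.

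RPKM were computed from the counts and the gene lengths. Genes above 10 RPKM in both libraries of any group (4504, 4683, 4158 and 3503 genes in gestation, subsets, inhibitor culture and time course) were tested with the quasi-likelihood method of edgeR 4.0.16 after TMM scaling, in 1 fit per experiment (R 4.3.3). P-values were adjusted over all of them by Benjamini-Hochberg, and a call needed a fold over 2 and an adjusted p under 0.05. DESeq2 1.42.0 and limma-voom (limma 3.58.1) were alternatives, beside those named in the section on processing. The common biological coefficient of variation was 0.254, 0.248, 0.359 and 0.414 in the same order, so the spread between libraries, more than depth, set the precision. On simulated data with 200 genes changed 4-fold, the test found 96.5% for gd6.5 against virgin (4504 genes) and 49.5% for IL-21 at 0 h (3503 genes). For IL-21 against control in the inhibitor culture it found 68.5%. There 8.67% of calls were false, against 3.88 to 4.79% in the other comparisons simulated. Most differences of the members were below 4-fold, and recovery at such folds was not simulated.

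Single cells were clustered with scanpy 1.11.5 on 2000 variable genes, 20 components and 20 neighbours (Leiden, resolution 0.8), without the members and other family genes. The study states the limits of 200 and 2500 for UMIs, and here they were applied to genes, which left 8907 cells before mast cells were removed, where the limits on UMIs leave 4334. Scrublet marked 1 of 8902 cells and has therefore not worked, so no doublets were removed. A class was named from fixed markers only. Log2 values are those of fitted fold changes, and likeness used log2(CPM + 1). Levels in each library are given for all 8 members. Fold changes with errors are given where a member was called, or where its libraries did not overlap and the fitted fold was above 2. The members and all gene lists were chosen with earlier results of these data known. Promoter sequences come from RefSeq (GRCm38.p6).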

Additional observations from a re-analysis of the deposited data

Results flagged for a closer look

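For 11 values the effect of IL-21 on a member differed between time points or cultures, 2 of them by a test and 9 because both IL-21 libraries lay above the controls in one setting and below them in the other, which was not tested. All are differences of log2 effects. By the edgeR interaction test, the effect at 72 h was above that at 6 h by 1.29 for S100a6 and by 2.12 for Lgals9, whose values and leave-one-out results are given above.

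Untested, S100a4 had an effect at 6 h that was -2.32 relative to the effect at 0 h, and one at 24 h that was -1.43 relative to 0 h. The 0 h value comes from libraries with 0 h of culture by the labels and is not read as a response to IL-21. This limit holds for every difference from 0 h given here. For S100a11 the effect at 6 h minus that at 0 h was -0.90. For Lgals1 the effect at 6 h minus that at 0 h was -0.63, and the effect in the inhibitor culture minus that at 6 h was 1.23. For S100a6 the effect at 72 h minus that at 24 h was 1.06. For Lgals9 the effect at 72 h was above that at 0 h by 1.60 and above that at 24 h by 1.94, and the effect in the inhibitor culture, also at 72 h, was -1.56 relative to that at 72 h of the time course. The last difference spans 2 experiments made with different kits. With 2 libraries a group no library could be tested as standing apart from its group.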

How the results depend on the processing

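Of 132 counts of members called under other settings, 108 stayed within 1.5 times the main count. In most comparisons the main count was 0, where this only means that the count was 0 again. The share is therefore no measure of how stable the calls were. None of the 126 values of single members that were followed under other settings reversed direction. For gd6.5 against virgin (3 called), the fit of the compared groups alone and the replicate block each called 0 and limma-voom 2. For gd8.5 against virgin (0), no filter on genes called 1 (Lgals3). For trNK-D against trNK-V (0), DESeq2, limma-voom, no filter and the replicate block each called 1 (Lgals3). For iSTAT3 against control (1), no filter, the compared groups alone and the replicate block each called 0. For IL-21 at 6 h (2), DESeq2 scaling called 1 and limma-voom 1 (S100a10), the compared groups alone 4 and the replicate block 0. For IL-21 at 24 h (0), DESeq2, no filter and the compared groups alone each called 1 (S100a10), and at 72 h (0) DESeq2 and no filter each called 1 (Lgals9). For 72 h against 24 h (2), the compared groups alone called 1 (Lgals1). For the interaction of 72 h with 6 h (2), DESeq2 called 4, no filter 5, the compared groups alone 0 and the replicate block 1 (Lgals3). The causes were not tested. With 1 library left out, counts ran from 0 to 3 for gd6.5 against virgin, 0 to 1 for gd8.5 against virgin, 1 to 4 for trNK-T against trNK-V, 0 to 0 for iSTAT3 against control and for IL-21 at 6 h, 0 to 1 at 72 h, 1 to 2 for 72 h against 24 h and 0 to 4 for the interaction. The group left with 1 library was then assumed to vary like the others.

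Replicate numbers are shared between groups, but same-numbered libraries did not deviate together in every pair (r from -0.502 to 0.596), and with 2 numbers they share only a number, so the replicate block is an alternative only. In single cells the 4 members higher in trNK-like cells were the same number, 4, in all 7 settings, although 136 of 416 levels in a class moved beyond their counting intervals and the trNK-like share of cells ran from 26.1 to 46.7%. Keeping the 5 mast cells was chosen after seeing the data. Precision is limited by 2 libraries a group, and for S100a4 also by low counts and by the exon bases it shares with Gm42674.

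The background counts over all genes moved too, and a selection of the larger moves under other settings is given. Fits with 1 library left out also moved these counts, in part by more, and are not listed here. For gd6.5 against virgin, 278 genes were called, with 462 by DESeq2, 919 with no filter, 0 with the compared groups alone and 2 with the replicate block. For gd8.5 against virgin (19), DESeq2 called 164, no filter 502 and the replicate block 0. For gd8.5 against gd6.5 (0 genes), DESeq2 called 221, no filter 452 and the compared groups alone 252. For trNK-D against trNK-V (15), DESeq2 called 187 and no filter 471, and for trNK-T against trNK-V (991) no filter called 2022. For trNK-T against trNK-D (82), DESeq2 called 326, no filter 587, the compared groups alone 31 and the replicate block 151. For IL-21 against control (12), DESeq2 called 162, no filter 146, the compared groups alone 8 and the replicate block 1, and for iSTAT3 against IL-21 (123) DESeq2 called 445, no filter 461 and the replicate block 8. For iSTAT3 against control (197), DESeq2 called 583, no filter 653 and the replicate block 55. For IL-21 at 6 h (69), DESeq2 called 127 and the compared groups alone 233, at 24 h (58) they called 145 and 310, and at 72 h (283) no filter called 1518 and the compared groups alone 0. For 72 h against 24 h (518) the last 2 settings called 1829 and 72, and for the interaction of 72 h with 6 h (146) they called 873 and 47.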
